A study of Mus musculus with 6 samples.

Results

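The 9 genes described here belong to the hormone systems that act on the loaded heart. They are Agt, Ace and Agtr1a of the renin-angiotensin system, Edn1, Ece1, Ednra and Ednrb of the endothelin system, and the corticosteroid receptor genes Nr3c1 and Nr3c2. They were taken by symbol from a raw read count table of 24404 genes, and all 9 were in it. Each was compared between KO-TAC hearts, from miR-204-/- mice, and WT-TAC hearts, from wild-type mice, with 3 libraries per genotype. Every heart had been under transaortic constriction for 5 weeks, an operation in which a band on the aorta makes the left ventricle pump against a raised pressure. The groups therefore share the surgery and the time, and differ by genotype alone in the labels. No unoperated heart was analysed here. The labels give neither age nor sex, and nothing in them says how the miR-204 deletion was made or whether a library came from 1 animal, so p-values measure only the spread between these libraries. The samples were heart tissue, in which fewer cells of a type and less RNA per cell cannot be told apart.

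In the renin-angiotensin system, renin cuts angiotensinogen, the product of Agt, to angiotensin I, and the converting enzyme encoded by Ace cuts this to angiotensin II. Angiotensin II acts through the receptor that Agtr1a encodes, which couples to Gq proteins, constricts vessels and drives growth of muscle and matrix. Endothelin-1, from Edn1, is made mainly by endothelial cells and is cut to its active form by the enzyme of Ece1. Ednra on muscle cells and pericytes mediates constriction, whereas Ednrb on endothelial cells also clears endothelin and releases vasodilators. Nr3c1 encodes the glucocorticoid receptor and Nr3c2 the mineralocorticoid receptor, which binds aldosterone and, in cells that lack the enzyme Hsd11b2, mostly glucocorticoids. These systems are targets of drugs given in heart failure.

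MicroRNAs repress messenger RNAs that match their seed, so the sequence missing from KO-TAC mice is shown with its matches in Ece1 and Nr3c2. The mature miR-204-5p lies at chr19:22750610-22750631 on the plus strand (RefSeq, GRCm38.p6), and capitals mark its seed, bases 2 to 8. The other lines are 30 bases of the 3' UTR around a full match to that seed, in capitals, 5' to 3' in the sense of the messenger RNA (GENCODE M21, GRCm38). The Ece1 stretch lies at chr4:137962921-137962950 and the Nr3c2 stretch at chr8:77243440-77243469, both on the plus strand.
mmu-miR-204-5p: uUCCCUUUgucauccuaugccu
Ece1 site: agagcacggacagaaAAAGGGAaggagctg
Nr3c2 site: tacagtgtatttaagAAAGGGAaagctgtg

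Of the 9 genes, 3 held the match AAAGGGA in their longest annotated 3' UTR, and these were Ece1, Nr3c1 and Nr3c2. Ece1 held 1 match, from base 30 of 2323. Nr3c2 held 1, from base 925 of 2482. Nr3c1 held 3, from bases 454, 2236 and 2819 of 3937. The match in Ece1, the match in Nr3c2 and 2 of the 3 in Nr3c1 were followed by an A, the extended 8-base form. The match occurred in 17.0% of the 12035 tested genes with an annotated 3' UTR, and in 28.8% of the 2734 whose 3' UTR was 2000 to 4000 bases long, a range that covers these 3 genes. Both corticosteroid receptors carried a match and no receptor of angiotensin or endothelin did. The 3' UTRs of Agtr1a, Ednra and Ednrb were shorter, at 834, 1945 and 2441 bases, and that of Ednrb also lies in this range. A match is a description of letters, and the 3 genes with a match did not share a direction. Ece1 was higher in KO-TAC by a log2 fold change of 0.50 ± 0.24 (SE), while Nr3c1 and Nr3c2 had −0.29 ± 0.20 and −0.11 ± 0.23. None of these passed the test described below. The median log2 fold change was −0.02 over the 2046 tested genes with a match and 0.01 over the 9989 without.

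By position, 3 of the genes lie on chromosome 8 of GRCm38. Nr3c2 (76899442 to 77245012) and Ednra (77663031 to 77724464) are 418 kb apart, with 3 protein-coding genes of the table between them, Arhgap10, Prmt10 and Tmem184c. Agt lies further along (124556534 to 124569706). Agtr1a (30336441 to 30382867) and Edn1 (42301476 to 42307990) share chromosome 13. Ace lies on chromosome 11 (105967945 to 105989964), Ece1 on chromosome 4 (137862237 to 137965229), Ednrb on chromosome 14 (103814625 to 103844402) and Nr3c1 on chromosome 18 (39410545 to 39519421).

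The libraries held 6411538 to 8571737 counts. KO-TAC replicate 3 was assigned by its library index, because the number before that index in its column name is not that of its own label but the number given to WT-TAC replicate 3. It also stood apart from the other KO-TAC libraries in several genes below, so the 9 genes are also given without it. Of all 15 pairs of libraries, it and WT-TAC replicate 3, the pair that shares that number, differed least. Their median chi-square over genes was 3.17, against 4.02 to 7.74 in the other pairs. The bearing of this likeness on the assignment was not tested. Without KO-TAC replicate 3, the log2 fold changes were −0.01 for Agt, 0.59 for Ace, −0.77 for Agtr1a, 1.03 for Edn1, 0.73 for Ece1, 0.24 for Ednra, 0.35 for Ednrb, −0.46 for Nr3c1 and −0.15 for Nr3c2. None was called in that fit, and 3 (Ace, Ece1 and Nr3c1) had an unadjusted p under 0.05 in edgeR. Over all genes, 723 were under 0.05 in that fit, against 366 of 12487 with all libraries. The row of Mir204 had 0 counts in all 6 libraries, so the genotype could not be checked from it. All 8 cardiomyocyte markers, such as Myh6 and Tnnt2, were present in every library, at a summed 67851 to 97548 CPM (counts scaled to library size) in KO-TAC and 72442 to 86703 CPM in WT-TAC.

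None of the 9 genes was called different between the genotypes. In edgeR's quasi-likelihood test, 5 were higher and 4 lower in KO-TAC, and each had a Benjamini-Hochberg adjusted p of 0.999 over the 12487 genes tested. Of all tested genes, 3 passed, or 0.0240%, so a list of 9 with no call is near the background. DESeq2 and limma-voom also called 0 of the 9. Below 0.05 before adjustment there was 1 gene, Ednrb, with an unadjusted p of 0.0418 in edgeR, against 2.93% of all tested genes. Ednrb was not below 0.05 before adjustment with no scaling (0.0546), in DESeq2 (0.0530) or in limma-voom with quality weights (0.123), where Agtr1a, Ece1 and Edn1 were instead. Among the edgeR fits that each omit 1 library, Ednrb was below 0.05 only without KO-TAC replicate 2 or without WT-TAC replicate 2. With quality weights 691 of all tested genes were below 0.05 before adjustment, against 366 in edgeR. The groups overlapped in all 9 genes, whereas they did not overlap in 7.98% of all tested genes (4.26% higher and 3.72% lower in KO-TAC). The median log2 fold change of the 9 was 0.18, beside 0.0012 over all tested genes. The 95% interval of the fold change held 1 for 8 of the 9 genes, all except Ednrb.

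**Figure D1:**
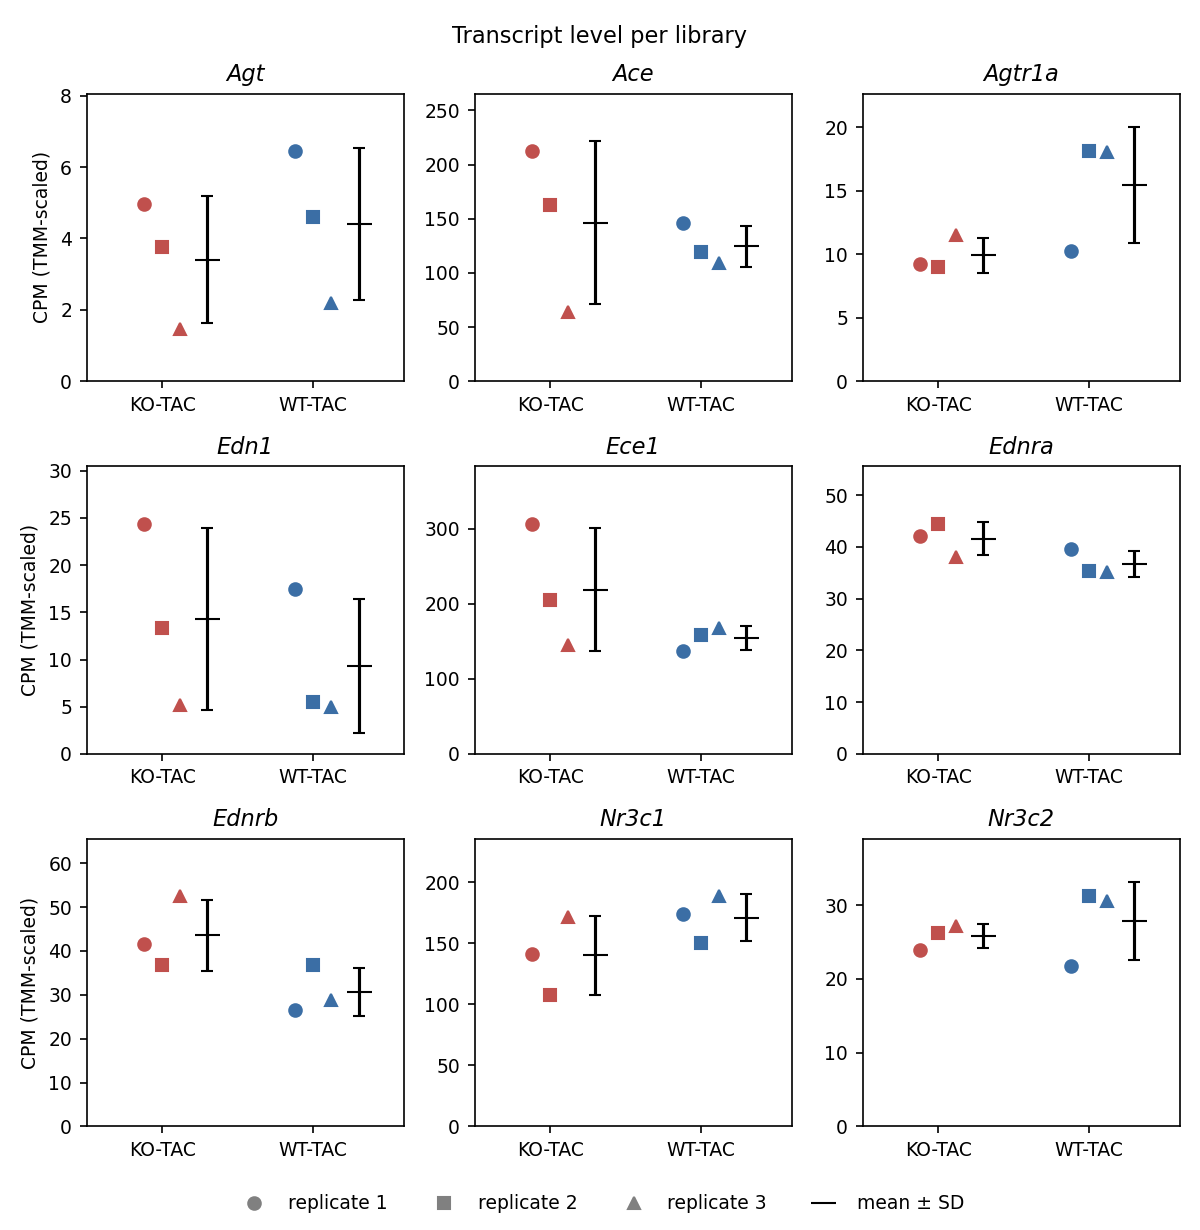
Transcript level of each of the 9 genes in CPM (TMM-scaled, linear axes from 0), KO-TAC left of WT-TAC; symbols mark the replicate number, and the bars give the mean and SD of 3 libraries. The groups overlap in every panel, and Agt, Ace, Edn1, Ece1 and Ednra are lowest among the KO-TAC libraries in replicate 3.

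Among the angiotensin genes, Agt had the fewest counts. It had 34, 31 and 10 counts in the KO-TAC libraries, or 4.97, 3.77 and 1.48 CPM, against 41, 40 and 16 counts in the WT-TAC libraries, or 6.45, 4.59 and 2.19 CPM. Replicate 3 was the lowest of each genotype, the groups overlapped, and the 6 libraries spanned a 4.36-fold range. The log2 fold change was −0.37 ± 0.60 (SE), and the interval of the fold ran from 0.316 to 1.91.

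Ace, the converting enzyme of endothelial cells, had 212, 163 and 64.3 CPM in the KO-TAC libraries, against 146, 119 and 109 CPM in the WT-TAC libraries. The highest and the lowest library were both KO-TAC, and the WT-TAC values lay between them. The log2 fold change was 0.23 ± 0.36 (interval of the fold 0.665 to 2.08). Leaving out KO-TAC replicate 3 gave 0.59, and leaving out KO-TAC replicate 1 turned it to −0.13.

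Agtr1a, the angiotensin II receptor gene, had 9.21, 8.99 and 11.5 CPM in the KO-TAC libraries, against 10.2, 18.1 and 18.1 CPM in the WT-TAC libraries. The 3 KO-TAC libraries lay close together, and WT-TAC replicate 1 fell among them while the other two WT-TAC libraries were higher. The mean was 9.91 ± 1.41 CPM in KO-TAC and 15.5 ± 4.55 CPM in WT-TAC (SD, n = 3 each). The log2 fold change was −0.65 ± 0.32, the most negative of the 9, with an interval of the fold from 0.398 to 1.02 (edgeR, unadjusted p of 0.0612). Over the fits that each omit 1 library it ran from −0.87 to −0.52 and stayed negative.

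The other parts of the renin-angiotensin list were taken whole. Of its 18 genes, 10 were tested, 4 were higher and 6 lower, 0 were called and 0 had an unadjusted p under 0.05 in edgeR. Of its 10 tested genes the groups did not overlap in 1, Enpep, beside the 7.98% of all genes. Ren1 and Ren2, the renin genes, and the receptor genes Agtr1b and Agtr2 had 0 counts in all 6 libraries, which allows up to 0.344 to 0.472 CPM of assigned reads per library (3 counts, counting error only). A 0 in this table may also be reads that were not assigned to the row: the near-identical haemoglobin genes Hba-a1, Hba-a2, Hbb-bs and Hbb-bt were at 0 in every library, where the erythroid gene Alas2 had 22.6 to 71.6 CPM. Mas1, the receptor of angiotensin 1-7, had 3, 0 and 0 counts in KO-TAC and 0, 5 and 5 in WT-TAC, too few for the filter on low counts. Enpep, the aminopeptidase that trims angiotensin II, had 14.3, 14.7 and 15.5 CPM in KO-TAC, against 6.61, 13.1 and 12.1 CPM in WT-TAC (log2 fold change 0.48 ± 0.32, and 0.24 without WT-TAC replicate 1). Further values were 0.13 ± 0.33 for Prcp, a carboxypeptidase of angiotensin II, −0.37 ± 0.68 for Mme, neprilysin, and −0.10 ± 0.23 for Lnpep, an aminopeptidase that binds angiotensin IV. The median of the 10 tested genes was −0.05.

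No endothelin gene passed the test. Of the blood endothelial markers, 7 of 8 were higher in KO-TAC (median log2 fold change 0.30), and their part in the endothelin values was not tested. Edn1, the ligand, had 24.4, 13.4 and 5.17 CPM in the KO-TAC libraries, against 17.5, 5.51 and 4.93 CPM in the WT-TAC libraries. It was the most variable of the 9 genes, with a 4.95-fold range over the 6 libraries, and high values occurred in both genotypes. The log2 fold change was 0.63 ± 0.62 (interval of the fold 0.594 to 4.05). It ran from 0.015 without KO-TAC replicate 1 to 1.44 without WT-TAC replicate 1.

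The libraries with more Edn1 also had more of the load-responsive transcripts Nppa and Ctgf (Ccn2). Nppa, the atrial natriuretic peptide gene, had 6603, 5033 and 311 CPM in KO-TAC, against 7904, 2444 and 2668 CPM in WT-TAC. Ctgf, which encodes a matrix-associated growth factor, had 700, 570 and 68.4 CPM in KO-TAC, against 434, 195 and 170 CPM in WT-TAC. For all 3 transcripts, replicates 1 and 2 of KO-TAC and replicate 1 of WT-TAC were the highest 3 libraries. The part of this shared ranking in the values of Edn1 was not tested.

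Ece1, the endothelin-converting enzyme, had 307, 205 and 145 CPM in the KO-TAC libraries, against 137, 158 and 168 CPM in the WT-TAC libraries. Replicates 1 and 2 of KO-TAC stood above every WT-TAC library, and KO-TAC replicate 3 fell among them. The mean was 219 ± 82.0 CPM in KO-TAC and 155 ± 15.8 CPM in WT-TAC (SD, n = 3 each). The log2 fold change was 0.50 ± 0.24, with an interval of the fold from 0.982 to 2.04 and an unadjusted p of 0.0609 in edgeR. Leaving out KO-TAC replicate 3 gave 0.73 (edgeR, unadjusted p of 0.00397, adjusted p of 0.584), and leaving out KO-TAC replicate 1 gave 0.18.

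Of the receptors, Ednra was the steadiest of the 9 genes, with a 1.26-fold range over the 6 libraries. It had 42.1, 44.5 and 38.1 CPM in the KO-TAC libraries, against 39.5, 35.3 and 35.2 CPM in the WT-TAC libraries. The groups overlapped by KO-TAC replicate 3 and WT-TAC replicate 1, and the log2 fold change was 0.18 ± 0.19, with an interval of the fold from 0.848 to 1.52. Ednrb had 41.5, 36.7 and 52.5 CPM in the KO-TAC libraries, against 26.4, 36.7 and 28.8 CPM in the WT-TAC libraries. The lowest KO-TAC value and the highest WT-TAC value were the same to 3 digits, and the mean was 43.5 ± 8.08 CPM in KO-TAC and 30.6 ± 5.40 CPM in WT-TAC (SD, n = 3 each). Its log2 fold change was 0.50 ± 0.22, a fold of 1.42 with an interval from 1.02 to 1.98. It was 0.35 when KO-TAC replicate 3 was omitted and 0.66 when WT-TAC replicate 2 was omitted, and it stayed positive in all 15 alternative fits.

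Of the 7 genes in the endothelin list, 6 were tested, 5 were higher and 1 lower, with 0 called, 2 at an unadjusted p under 0.05 in edgeR and a median log2 fold change of 0.50. The second gene at that level was Edn3, the ligand best known for acting on Ednrb in neural crest cells. It had 21.04, 23.8 and 11.7 CPM in KO-TAC, against 12.6, 7.80 and 8.63 CPM in WT-TAC, and the groups overlapped by KO-TAC replicate 3 and WT-TAC replicate 1. Its log2 fold change was 0.97 ± 0.34 (edgeR, unadjusted p of 0.0123, adjusted p of 0.999) and ran from 0.76 to 1.22 over the fits that each omit 1 library. Edn2 had 0 counts in all 6 libraries. Ece2, a related converting enzyme, had 5.99, 5.22 and 0.739 CPM in KO-TAC, against 6.45, 3.56 and 2.88 CPM in WT-TAC (log2 fold change −0.10 ± 0.67).

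**Figure D2:**
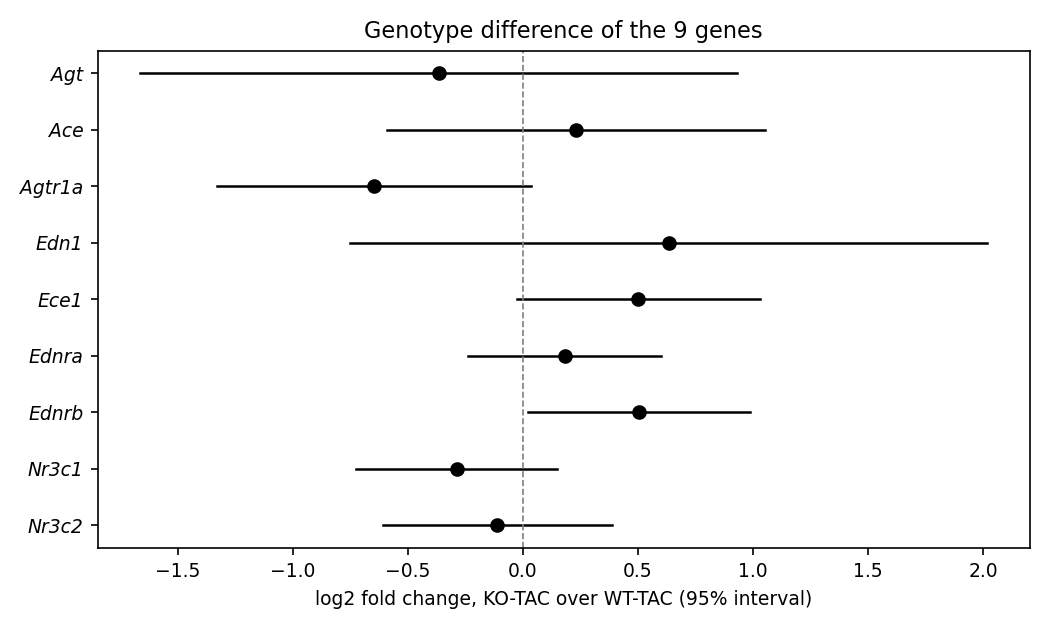
Log2 fold change of KO-TAC over WT-TAC for each of the 9 genes (points) with the 95% interval of edgeR's quasi-likelihood test (lines); the dashed line marks no difference. The interval of Ednrb, from 0.02 to 0.99, is the one that leaves out 0, and those of Agt and Edn1 are the widest.

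The corticosteroid receptors had log2 fold changes below 0, and neither passed. Nr3c1, the glucocorticoid receptor gene, had 141, 108 and 172 CPM in the KO-TAC libraries, against 174, 150 and 189 CPM in the WT-TAC libraries. KO-TAC replicate 3 lay within the WT-TAC range and the other two KO-TAC libraries below it. The log2 fold change was −0.29 ± 0.20, with an interval of the fold from 0.605 to 1.11, and it was −0.46 when KO-TAC replicate 3 was omitted and −0.13 when KO-TAC replicate 2 was omitted. Nr3c2, the mineralocorticoid receptor gene, had 24.0, 26.2 and 27.2 CPM in the KO-TAC libraries, against 21.7, 31.2 and 30.5 CPM in the WT-TAC libraries. All KO-TAC values fell inside the WT-TAC range, with a log2 fold change of −0.11 ± 0.23 and an interval of the fold from 0.656 to 1.31.

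Steroid-handling genes of these receptors were read with the same limit, that a 0 may be reads not assigned to the row. Cyp11b2, which makes aldosterone, had 0 counts in all 6 libraries. Cyp11b1, of glucocorticoid synthesis, had 2 counts in WT-TAC replicate 3 and 0 elsewhere. Hsd11b2, which inactivates glucocorticoids, had 0 counts in each KO-TAC library and 3, 1 and 0 in the WT-TAC libraries. Hsd11b1, which regenerates them, had 10.2, 4.86 and 5.32 CPM in KO-TAC, against 5.82, 4.13 and 8.22 CPM in WT-TAC. Of the 12 genes in this list, 9 were tested, 5 were higher and 4 lower, 0 were called, 0 had an unadjusted p under 0.05 in edgeR, and the median log2 fold change was 0.09. The chaperone Hsp90aa1, which holds unliganded receptors, had 0.31 ± 0.23 (0.15 without KO-TAC replicate 3 and 0.57 without WT-TAC replicate 1), and the receptor coregulators Ncoa1, Ncoa2 and Ncor1 had 0.10 ± 0.19, −0.16 ± 0.17 and −0.01 ± 0.21.

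Genes that corticosteroids are known to induce gave no call either. Of 14 such genes, all were tested, 5 were higher and 9 lower, 1 in each direction had an unadjusted p under 0.05 in edgeR, and the median log2 fold change was −0.19. Per1, a glucocorticoid-induced gene that is also part of the circadian clock, had 30.1, 87.2 and 32.5 CPM in KO-TAC, against 113, 138 and 75.6 CPM in WT-TAC (log2 fold change −1.12 ± 0.42, edgeR, unadjusted p of 0.0288, adjusted p of 0.999). The labels give no time of day, and its part in these values was not tested. Per1 was at −1.79 without KO-TAC replicate 2 and at −0.86 without KO-TAC replicate 1. Zbtb16, a transcription factor, had −0.50 ± 0.28, and −0.27 without WT-TAC replicate 3. Cdkn1a, a cell cycle inhibitor, had 15.2, 13.2 and 29.1 CPM in KO-TAC, against 11.01, 13.7 and 4.79 CPM in WT-TAC (0.96 ± 0.41, edgeR, unadjusted p of 0.0345, adjusted p of 0.999), and 0.53 without KO-TAC replicate 3. Pdk4, which restrains glucose oxidation, had 187, 218 and 2267 CPM in KO-TAC, against 179, 415 and 285 CPM in WT-TAC. KO-TAC replicate 3 alone carried its positive log2 fold change of 1.61 ± 1.15, which was −0.53 without that library.

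Downstream of the angiotensin and endothelin receptors, the Gq signalling list had 24 tested genes, 14 higher and 10 lower, with 0 called, 1 at an unadjusted p under 0.05 in edgeR and a median log2 fold change of 0.01. Trpc6, a cation channel opened by diacylglycerol, had 1.17, 1.46 and 0.296 CPM in KO-TAC, against 10.7, 1.72 and 2.60 CPM in WT-TAC. These were 8, 12 and 2 counts in KO-TAC and 68, 15 and 19 in WT-TAC. The groups did not overlap, but the closest libraries, replicate 2 of each genotype, had only 12 and 15 counts. WT-TAC replicate 1 carried most of the difference (−2.31 ± 0.84, and −1.13 without that library). Plcb2, a phospholipase C, had −0.99 ± 0.73, with −0.30 when WT-TAC replicate 1 was omitted and −1.73 when KO-TAC replicate 1 was omitted. Rgs4 and Rgs5, which switch off Gq proteins, had 0.57 ± 0.28 and 0.30 ± 0.17, and neither overlapped between groups, with 14.8, 14.8 and 19.8 CPM of Rgs4 in KO-TAC, against 12.1, 10.2 and 10.96 CPM in WT-TAC. The G protein genes of the pathway, Gnaq and Gna11, had −0.15 ± 0.20 and −0.16 ± 0.17, and Gna11 did not overlap between groups. Of the 24 genes, 2 higher and 2 lower in KO-TAC thus did not overlap, beside 7.98% of all tested genes.

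Of 14 genes that angiotensin II or endothelin-1 are known to induce in heart cells, 13 were tested, 7 were higher and 6 lower, with 0 called, 1 in each direction at an unadjusted p under 0.05 in edgeR and a median log2 fold change of 0.15. Rcan1, a calcineurin target, had 166, 183 and 93.7 CPM in KO-TAC, against 97.7, 78.5 and 58.5 CPM in WT-TAC (0.91 ± 0.26, edgeR, unadjusted p of 0.00373, adjusted p of 0.999). Fos, an immediate early gene, had 4.53, 1.82 and 4.73 CPM in KO-TAC, against 8.81, 13.9 and 4.79 CPM in WT-TAC (−1.32 ± 0.50, edgeR, unadjusted p of 0.0206, adjusted p of 0.999). Fos was at −0.88 without WT-TAC replicate 2. Acta1, skeletal actin, had 0.55 ± 0.30, with 0.19 when KO-TAC replicate 2 was omitted and 0.84 when KO-TAC replicate 3 was omitted. Spp1, osteopontin, had −1.30 ± 0.64, with −0.49 when WT-TAC replicate 1 was omitted.

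**Figure D3:**
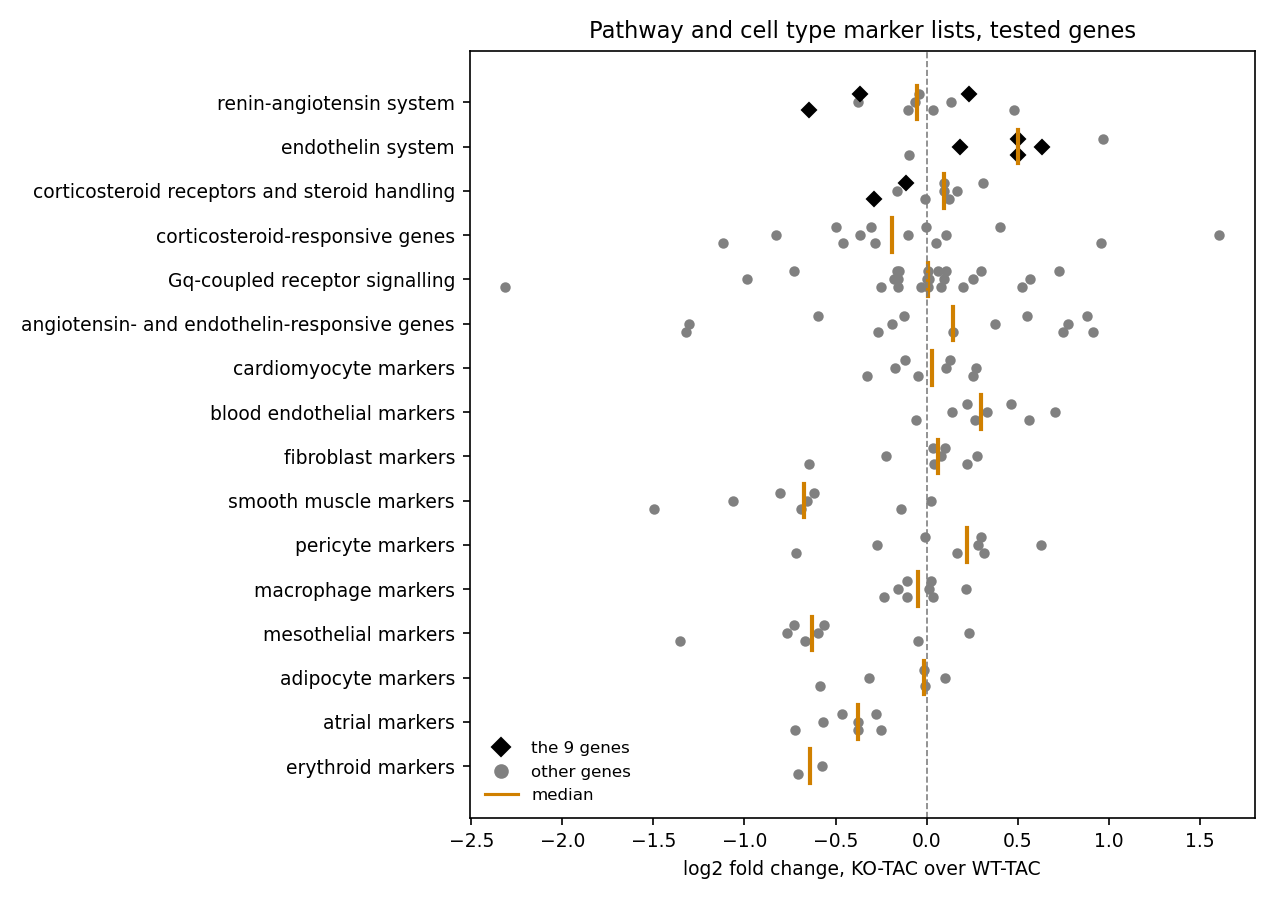
Log2 fold change of KO-TAC over WT-TAC for every tested gene of the pathway and cell type marker lists, 1 row per list; diamonds are the 9 genes, circles other genes and vertical bars medians. The endothelin median lies at 0.50 and the renin-angiotensin median at −0.05, and no gene shown passed the test over all genes.

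Level per exon length sets the genes on 1 scale, as CPM per kb of annotated exon. The geometric mean over the 6 libraries was 33.8 for Ece1, 24.0 for Ace, 19.9 for Nr3c1, 8.47 for Ednrb, 7.12 for Ednra, 4.50 for Edn1, 4.36 for Agtr1a, 4.11 for Nr3c2 and 1.84 for Agt. The converting enzymes of both systems thus stood above their ligands and receptors in every library, as did Nr3c1 above Nr3c2. None of the 8 steps between neighbours passed an exact two-sided sign-flip permutation test over the 6 libraries after adjustment over the 8. The order was taken from the same libraries, and with 6 of them an adjusted p under 0.05 was hardly reachable. The test therefore does not show that neighbouring levels are equal. The clearest, from Nr3c1 down to Ednrb, was a log2 difference of 1.23 ± 0.52 (SD), seen in 6 of 6 libraries (p = 0.0312, the smallest the exact test can give, adjusted p = 0.167). The step from Ece1 to Ace held in 5 of 6 libraries (0.49 ± 0.41, p = 0.0625 in the exact test). Edn1, Agtr1a and Nr3c2 could not be ordered, with each step holding in 3 of 6 libraries. With the longest transcript as the length, Ednra, at a mean of 10.8, stood above Ednrb, at 8.80.

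**Figure D4:**
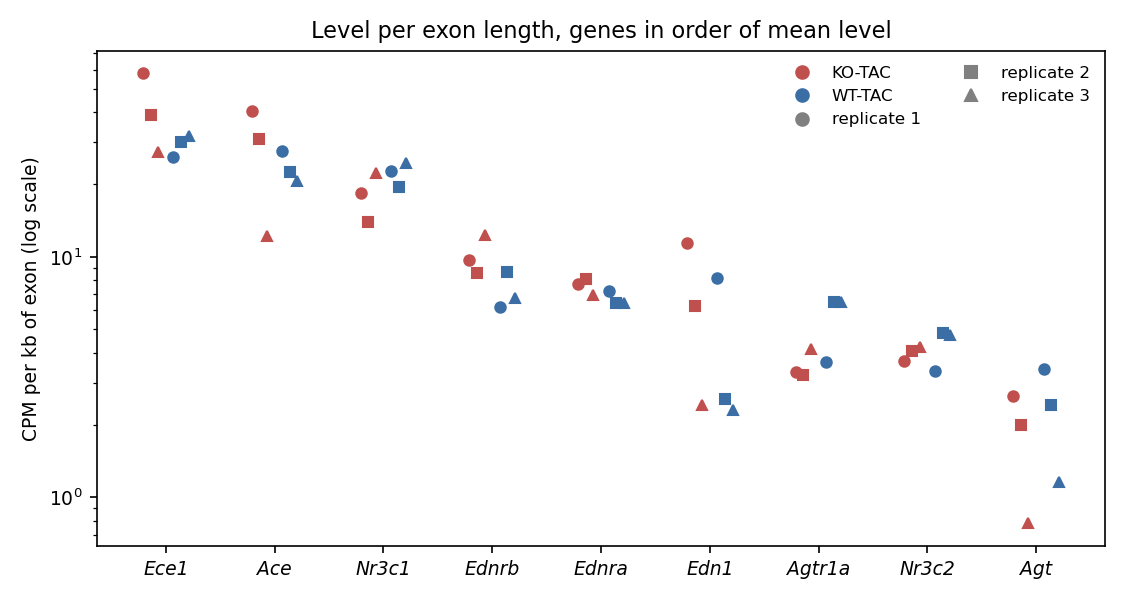
CPM per kb of exon (log axis) of the 9 genes in order of their mean level, with KO-TAC libraries left of WT-TAC libraries and symbols for the replicate number. Ece1, Ace and Nr3c1 lie highest, with means of 33.8, 24.0 and 19.9, and Agt lowest at 1.84.

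Ratios set partner genes of the same library against each other, so library scaling enters through the added 0.5 alone. The log2 ratio of Ednra over Ednrb was 0.02, 0.27 and −0.46 in the KO-TAC libraries, against 0.57, −0.05 and 0.29 in the WT-TAC libraries. The groups overlapped, with a difference of −0.32 (exact permutation p = 0.4, two-sided, adjusted p = 0.667 over the 4 ratios tested). For Nr3c1 over Nr3c2 the log2 ratio was 2.54, 2.01 and 2.64 in KO-TAC, against 2.98, 2.25 and 2.61 in WT-TAC, a difference of −0.22 (exact permutation p = 0.5). For Ece1 over Edn1 it was 3.63, 3.89 and 4.68 in KO-TAC, against 2.94, 4.73 and 4.96 in WT-TAC, a difference of −0.14 (exact permutation p = 0.8). With 3 libraries against 3 this test cannot give a p below 0.1.

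**Figure D5:**
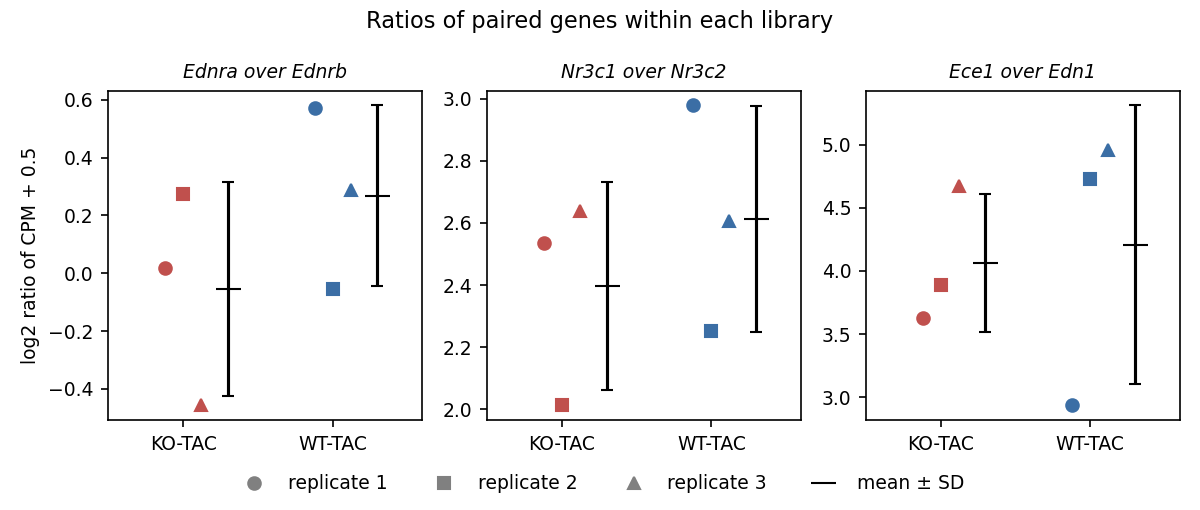
Log2 ratio of CPM + 0.5 for pairs of partner genes within each library, KO-TAC left of WT-TAC; bars give the mean and SD of 3 libraries, and each panel has its own axis. The groups overlap in all 3 panels.

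Several of these genes are expressed in few of the heart's cell types, whose markers also moved between libraries. Blood endothelial markers summed to 1911, 1496 and 1061 CPM in KO-TAC, against 1081, 1206 and 1107 CPM in WT-TAC. Of the 8 markers, 7 were higher and 1 lower, with 0 called, 1 at an unadjusted p under 0.05 in edgeR and a median log2 fold change of 0.30, from −0.06 for Egfl7 to 0.70 for Vwf. Within KO-TAC, Ace, Ece1 and Edn1 ranked the libraries as that sum did, and within WT-TAC none of them did. Ednrb ranked the libraries as that sum did within WT-TAC. Within KO-TAC it did not, and it was highest in replicate 3, where the sum was lowest. Per 1000 CPM of the endothelial markers, a measure added after the values were seen, Ece1 had 161, 137 and 136 CPM in KO-TAC, against 127, 131 and 152 CPM in WT-TAC. Its mean log2 difference was then 0.08, that of Edn1 0.25 and that of Ednrb 0.15, and that of Ace turned to −0.28. Ednrb had 21.7, 24.5 and 49.4 CPM in KO-TAC on this scale, against 24.4, 30.4 and 26.0 CPM in WT-TAC. Only KO-TAC replicate 3 lay above any WT-TAC library but replicate 1, and KO-TAC replicate 1 lay below all of them.

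Agtr1a and Ednra are known from mural and stromal cells. Pericyte markers summed to 760, 815 and 854 CPM in KO-TAC, against 663, 778 and 727 CPM in WT-TAC, with 5 of 8 higher and a median log2 fold change of 0.22. Smooth muscle markers summed to 561, 606 and 406 CPM in KO-TAC, against 683, 715 and 552 CPM in WT-TAC, with 7 of 8 lower, 2 at an unadjusted p under 0.05 in edgeR and a median of −0.67. Per 1000 CPM of the pericyte markers, Agtr1a had 12.1, 11.03 and 13.5 CPM in KO-TAC, against 15.4, 23.3 and 24.9 CPM in WT-TAC, a scale chosen after the data were seen. The groups did not overlap there, as for 9.20% of all tested genes in that direction. This separation rests on the inclusion of Abcc9, the largest marker of the pericyte sum in every library. Abcc9 had 285, 315 and 460 CPM in KO-TAC, against 214, 334 and 395 CPM in WT-TAC. Ednra on the pericyte scale had 55.4, 54.6 and 44.6 CPM in KO-TAC, against 59.5, 45.4 and 48.4 CPM in WT-TAC, a mean log2 difference of 0.01. Per 1000 CPM of the smooth muscle markers, also added after the data were seen, Agtr1a had 16.4, 14.8 and 28.4 CPM in KO-TAC, against 15.0, 25.4 and 32.7 CPM in WT-TAC, and the groups overlapped. Ednra had 75.0, 73.4 and 93.8 CPM in KO-TAC, against 57.8, 49.5 and 63.7 CPM in WT-TAC on this scale. The KO-TAC values were all higher, as for 14.8% of all tested genes, and neither scale was tested.

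Other cell types gave these values. Fibroblast markers summed to 1121 to 2461 CPM in KO-TAC and 1325 to 2443 CPM in WT-TAC, with 6 of 8 higher and a median log2 fold change of 0.06. Macrophage markers summed to 176 to 302 CPM in KO-TAC and 218 to 240 CPM in WT-TAC, with a median of −0.05. Mesothelial markers summed to 17.4 to 60.8 CPM in KO-TAC and 23.5 to 99.0 CPM in WT-TAC, with 7 of 8 lower and a median of −0.63. Adipocytes, a known source of Agt, had markers summing to 35.6 to 63.1 CPM in KO-TAC and 29.4 to 84.9 CPM in WT-TAC, with 1 of 5 tested higher and 4 lower. Adipoq, their defining hormone, had 34, 0 and 0 counts in KO-TAC and 0, 0 and 39 in WT-TAC. Atrial markers summed to 291 to 1317 CPM in KO-TAC and 843 to 1158 CPM in WT-TAC, with all 7 tested lower and KO-TAC replicate 3 the lowest. Of the 6 erythroid markers, 4 had 0 counts in all libraries and both tested ones were lower. None of these markers was called in edgeR, 1 atrial and 1 erythroid marker had an unadjusted p under 0.05, and their part in the values of the 9 genes was not tested.

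Each of the 9 genes was set beside the genes whose levels followed it most closely over the libraries. The measure was Pearson's r of log2 CPM over 6 libraries among 8959 candidates. With so many candidates, 6 shared libraries and shared depth, high values arise for any gene, and they are given as a description. Edn1 was followed most closely by Ube2s (0.997) and Zfp560 (0.990), Agt by Nckap5l (0.995) and Tgfb3 (0.991), and Ace by Ecm1 (0.991) and Man2b2 (0.989). Ece1 was followed by Ddt (0.990) and Farp2 (0.987), Ednra by Rnf149 (0.985) and by Edn3 of its own system (0.985), and Ednrb by Pogk (0.978) and Ints9 (0.967). For Agtr1a these were Pyurf (0.978) and Sema4b (0.978), for Nr3c1 Cnih4 (0.982) and Zfp952 (0.981), and for Nr3c2 Nol7 (0.991) and Eif3f (0.991).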

How the data were processed

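The values are raw counts as deposited, whole numbers of reads for each gene symbol that were not normalized. FastQC, HISAT2 (2.1.0), Subread and edgeR appear in the submitters' processing notes, as do mm10 and GRCm38, without their roles. The labels' protocols give a TruSeq kit, plain or stranded. The kit of each library, the annotation and the strand setting are not given in the sources used here, and overlapping genes may share reads.

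All 6 columns were tested together in edgeR (4.0.16, R 4.3.3): filterByExpr at a minimum count of 10, TMM scaling, and glmQLFit (robust) with glmQLFTest for genotype alone, on 12487 genes. Calls had a Benjamini-Hochberg adjusted p under 0.05. Log2 fold changes are KO-TAC over WT-TAC. A standard error is the size of that log2 value divided by the root of F, and a 95% interval takes the t quantile at the test's degrees of freedom. CPM rest on TMM-scaled library sizes, log2 CPM on a prior count of 2, and ratios on a pseudocount of 0.5. Of the 4 ratios tested, 1 is not reported here.

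The 9 genes, the lists and the tests were chosen with earlier results of these data known. Beside the 9, each pathway list contributes the 2 smallest p values among its other genes in each direction, and its ligands, enzymes and receptors that failed the filter. Hsd11b1, Gnaq, Gna11, Nppa, Ctgf, Adipoq, Lipe, Egfl7 and Vwf were named after their values were seen. Likeness names the 2 highest r per gene, at a mean log2 CPM of 3 or more, leaving out predicted models, pseudogenes and sex-linked markers. Lengths and 3' UTRs are those of GENCODE M21, which held 23350 symbols as current names and 665 as older names, with 389 left unmatched. Each pair of libraries differed beyond sampling noise, with a median chi-square over genes of 3.17 to 7.74, against 0.455 for noise alone. The edgeR script was tested on simulated counts. The alternatives were other scalings (RLE, upper quartile, none), other filters (none, or a minimum count of 30), DESeq2 (1.42.0), limma (3.58.1, voom with or without quality weights), a replicate block, omission of each library, other pseudocounts and another gene length. The common biological coefficient of variation was 0.286. Limits for counts of 0 cover counting error only.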

Additional observations from a re-analysis of the deposited data

How the results depend on the processing

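None of the 9 genes was called under any of the 15 alternatives. Over all tested genes, 3 were called with all libraries, TMM and the filter. No filter on low counts called 21, DESeq2 16, the replicate block 6, and limma-voom 0 (376 below 0.05 before adjustment). With 1 library left out the count ran from 0 to 7. Omitting WT-TAC replicate 1 gave 0 (437 below 0.05 before adjustment), omitting KO-TAC replicate 2 gave 7, and omitting KO-TAC replicate 3 gave 6. The replicate numbers pair nothing in the labels, and same-numbered libraries had correlations of their deviations of 0.135, 0.011 and 0.257. KO-TAC replicate 2 correlated best with another number, so the block is a setting only.

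Of the 9 genes, 8 kept the sign of the log2 fold change under all 15 alternatives. Ace ran from −0.13 to 0.59 with 1 library left out, and its value relative to endothelial markers, added after the data were seen, was −0.28. Among other named genes, leaving out 1 library gave −1.08 to 0.29 for Mme, −0.30 to 0.12 for Lnpep, −0.50 to 0.39 for Ece2, −0.24 to 0.13 for Ncor1, −0.063 to 0.32 for Prcp and −0.53 to 2.09 for Pdk4. Ece2 had 0.11 in limma-voom with quality weights. Rcan1 was called without the filter (adjusted p = 0.0290). The log2 ratio of Ece1 over Edn1 differed by −0.78 to 0.23 with 1 library left out, and the other two ratios given kept their sign. With the numbers as pairs, the exact sign-flip p of the ratios was 0.5 to 0.75. No step in the order of levels passed with either gene length (8 steps). The causes of these shifts were not tested.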
